A study of Mus musculus with 15 samples.

Results

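The 10 genes Lman1, Lman2, Mcfd2, Surf4, Tmed2, Tmed3, Tmed5, Tmed7, Tmed9 and Tmed10 encode receptors that load newly made proteins into transport vesicles at the endoplasmic reticulum (ER), and members of the p24 family of vesicle proteins. They were chosen by name, and every probe set that the platform's annotation gives to a single one of them was used, which makes 29 of 34945 single-gene probe sets and 10 of 18193 genes. A probe set is the group of short oligonucleotides on an array that reads 1 transcript region. Messenger RNA of primary C57BL/6 mouse hepatocytes, the main secretory cells of the liver, was hybridised to 15 Affymetrix Mouse Genome 430 2.0 arrays in 5 groups of 3. All cells were kept in the serum-free medium HepatoZYME-SFM and all carried an adenovirus. In the overexpression arm the virus Ad-EGFP (control), Ad-WT (wild-type IRE1a) or Ad-S724A (IRE1a with a serine-to-alanine change) was left for 48 hours, with no further treatment. In the knockdown arm Ad-shCON (control hairpin) or Ad-shIRE1a#2 (hairpin against IRE1a) was left for 72 hours and glucagon, the fasting hormone, was then added for 4 hours, so that every knockdown culture had glucagon. The arms differ in virus, time and glucagon, and no test joins them. The series text states 3 independent experiments but not whether they used separate animals, so p-values measure the spread between these samples.

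IRE1a, the product of Ern1, is a sensor in the ER membrane whose RNase splices Xbp1 mRNA, and the resulting transcription factor drives many genes of the secretory pathway. Proteins leave the ER in vesicles coated with COPII. Receptors that span the membrane hold soluble cargo on the inner side and the coat on the outer side. In humans, loss of LMAN1 or of its soluble calcium-binding partner MCFD2 lowers blood coagulation factors V and VIII, which the pair carries. SURF4 helps export lipoproteins from liver cells. The p24 (TMED) proteins are small membrane proteins that assemble with one another, cycle between ER and Golgi in COPII and COPI vesicles, and help GPI-anchored proteins leave the ER.

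Because the genes below moved together, the sequence around their transcription starts is shown first. RefSeq promoters of build GRCm38.p6, 300 bases each (250 before and 50 after the start), were at hand for 7 of the 10 genes: Lman2, Mcfd2, Surf4, Tmed3, Tmed5, Tmed9 and Tmed10. The start used for Surf4 lies inside the gene's span, chr2:26920041-26933776 on the minus strand, so it is not the gene's outermost start. The letters CCACG, part of the ER stress elements, were searched on both strands and occurred in 7 of 7, against 32.8% of all 32851 promoters in that table and 41.5% of those of genes on the array. The longer CCACGT, which contains CCACG and the core ACGT, occurred in 4 of 7 (Mcfd2, Tmed3, Tmed9 and Tmed10), against 8.31% of all promoters and 10.2% of those of array genes. The core ACGT alone was found in 6 of 7 (30.9% of all), CCAAT in 4 of 7 (37.4%) and TGACGT in 0 of 7 (7.51%). The full ER stress element, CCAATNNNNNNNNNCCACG, was found in 0 of 7 (0.119% of all), and the element ERSE-II, which is ATTGG and CCACG with 1 base between them, in 0 of 7 (0.0365%). A match describes letters and is not a measured binding site, and the motifs were searched with the array results known. The first CCACGT match of each of the 4 genes follows with 12 bases on each side, read 5′ to 3′ along the gene, with the match in capitals (ACGTGG is CCACGT on the other strand). The windows are chr17:87266120-87266149 on the minus strand for Mcfd2, chr9:89705227-89705256 on the minus strand for Tmed3, chr13:55593119-55593148 on the plus strand for Tmed9 and chr12:85374710-85374739 on the minus strand for Tmed10.
Mcfd2: acccacggtgagCCACGTtccggagcctca
Tmed3: atttctccggagACGTGGcagacactaagt
Tmed9: ctccgctgggctACGTGGctcggcagtctg
Tmed10: cagaggcgcgtcACGTGGgtgctcccggtt
In the other 3 promoters the first CCACG match (CGTGG on the other strand) is in capitals: chr13:55362797-55362825 on the minus strand for Lman2, chr2:26933509-26933537 on the minus strand for Surf4 and chr5:108132777-108132805 on the minus strand for Tmed5.
Lman2: agaaccctcggcCGTGGccggctgtcagg
Surf4: aggctcctcgagCGTGGcgggcggggcct
Tmed5: cgaccccgcccaCCACGcggggctctgcg
Tmed3 and Mcfd2, among the genes with the largest changes below, are shown with all 250 bases before the start, at chr9:89705044-89705293 on the minus strand and chr17:87265948-87266197 on the minus strand, with every CCACGT match in capitals. Mcfd2 has a match on each strand, at bases -190 to -185 and -72 to -67 from the start. Tmed3 has a match at -201 to -196 and another at 31 to 36, beyond the bases printed.
Tmed3: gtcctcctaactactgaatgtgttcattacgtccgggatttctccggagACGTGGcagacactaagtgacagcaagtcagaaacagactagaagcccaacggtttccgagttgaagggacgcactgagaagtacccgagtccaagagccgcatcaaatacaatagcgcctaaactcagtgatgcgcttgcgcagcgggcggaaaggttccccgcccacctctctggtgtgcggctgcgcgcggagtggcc
Mcfd2: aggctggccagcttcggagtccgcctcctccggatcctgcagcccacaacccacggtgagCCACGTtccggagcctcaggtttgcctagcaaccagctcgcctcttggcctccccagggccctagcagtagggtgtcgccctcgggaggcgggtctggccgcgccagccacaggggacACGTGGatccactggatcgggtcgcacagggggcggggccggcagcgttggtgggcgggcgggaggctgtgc

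The deposited values are log2 signals, so a difference of 1 is a doubling. Array medians lay between 5.69 and 5.83. Signals of different probe sets are not compared with each other, and each gene is represented by its probe set with the highest mean. Of the 10 genes, 9 reached a signal of 4 in at least 3 arrays and were tested; Tmed2 did not. Changes are given ± SE from limma, with n = 3 arrays a group. Adjusted p-values are limma's, with Benjamini-Hochberg adjustment over 16294 genes and a threshold of 0.05. One array stood apart. In replicate 3 of the wild-type IRE1a group, the 3′ minus 5′ difference of the beta-actin control probe sets, which grows as RNA is degraded, was 1.00, against 0.38 to 0.61 in the other 14 arrays. The same difference for Gapdh was 0.16 on that array, inside the 0.03 to 0.23 of the others. Values without it are given where it touches a result.

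The targeted gene was read by 5 Ern1 probe sets, and the brightest stands for it. The control-hairpin arrays read 8.89, 8.96 and 9.10, and the IRE1a-hairpin arrays 7.60, 7.44 and 7.51. The groups were apart, and Ern1 fell by 1.47 ± 0.19 (adjusted p = 0.00293), or by 0.56 when its 5 probe sets were averaged (adjusted p = 0.0258). The EGFP arrays read 9.41, 8.68 and 8.81, the wild-type IRE1a arrays 9.30, 8.89 and 9.07, and the S724A arrays 9.68, 9.04 and 9.54, which overlap. The changes of 0.12 ± 0.19 (adjusted p = 0.775) and 0.46 ± 0.19 (adjusted p = 0.159, and 0.0215 with the replicate block) missed the threshold. The sources used here do not say whether these probe sets read the viral transcript, so Ern1 does not check the overexpression labels, and directions in that arm rest on the labels. Xbp1 rose by 0.63 ± 0.11 under wild-type IRE1a (adjusted p = 0.00309) and by 0.52 ± 0.11 under S724A (adjusted p = 0.0137). The S724A call was lost when replicate 2 of either group was left out (adjusted p 0.0737 at most). These values are the signal of the probe set standing for Xbp1, and splicing of its mRNA was not measured.

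The hepatocyte markers were bright, with Alb (albumin) group means between 14.2 and 14.5. Of 8 hepatocyte markers, Cyp2e1, a cytochrome P450, fell by 2.27 ± 0.43 under wild-type IRE1a (adjusted p = 0.00421) and by 1.76 ± 0.43 under S724A (adjusted p = 0.0256), and Hnf4a, a hepatocyte transcription factor, rose by 0.74 ± 0.19 under wild-type IRE1a (adjusted p = 0.0237). The summed linear signal of the 8 was 73385 to 74422 in EGFP, 67194 to 72929 in wild-type and 65219 to 70020 in S724A arrays. Of 38 markers of other liver cells, 29 were tested and 0 passed the threshold in each of the 4 comparisons by limma, with 1, 3, 2 and 3 at an unadjusted p under 0.05. The summed signal of 8 macrophage and Kupffer cell markers was 3337 to 3832 in EGFP, 4466 to 4777 in wild-type and 3838 to 4483 in S724A arrays, and its brightest member, Cd68, a lysosomal protein, changed by 0.41 ± 0.15 under wild-type IRE1a (adjusted p = 0.114). Most of that sum is the signal of Cd68. Of the 8 markers, 3 were higher under wild-type IRE1a, with changes from -0.13 to 0.41 and a median of -0.05. The Kupffer cell markers Clec4f and Vsig4 changed by -0.06 ± 0.10 and -0.10 ± 0.22 there. Their part in the results below was not tested. In such bulk samples, a change in the share of cells and a change in RNA per cell cannot be told apart.

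The first comparison set wild-type IRE1a against EGFP and asks how these genes read in cultures given the wild-type IRE1a virus. Of the 9 tested genes, 8 rose and 0 fell, where 5.08% of all 16294 genes were called higher and 7.67% were called in either direction. All 3 wild-type arrays lay above all 3 EGFP arrays for 9 of 9, which held for 15.8% of all genes. The median change of the 9 was 0.95, against 0.00 for all genes. S724A IRE1a, compared with the same EGFP arrays, gave 7 of 9 risen and 0 fallen, against 3.87% of all genes called higher and 6.12% in either direction. The arrays were again apart for 9 of 9 (16.5% of all genes), and the median was 0.86 against -0.01. The comparisons share their control arrays, so their values stand side by side and are not independent. With the replicate number as a block, 9 of 9 rose in each, where 15.6% and 14.4% of all genes were called in either direction.

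**Figure D1:**
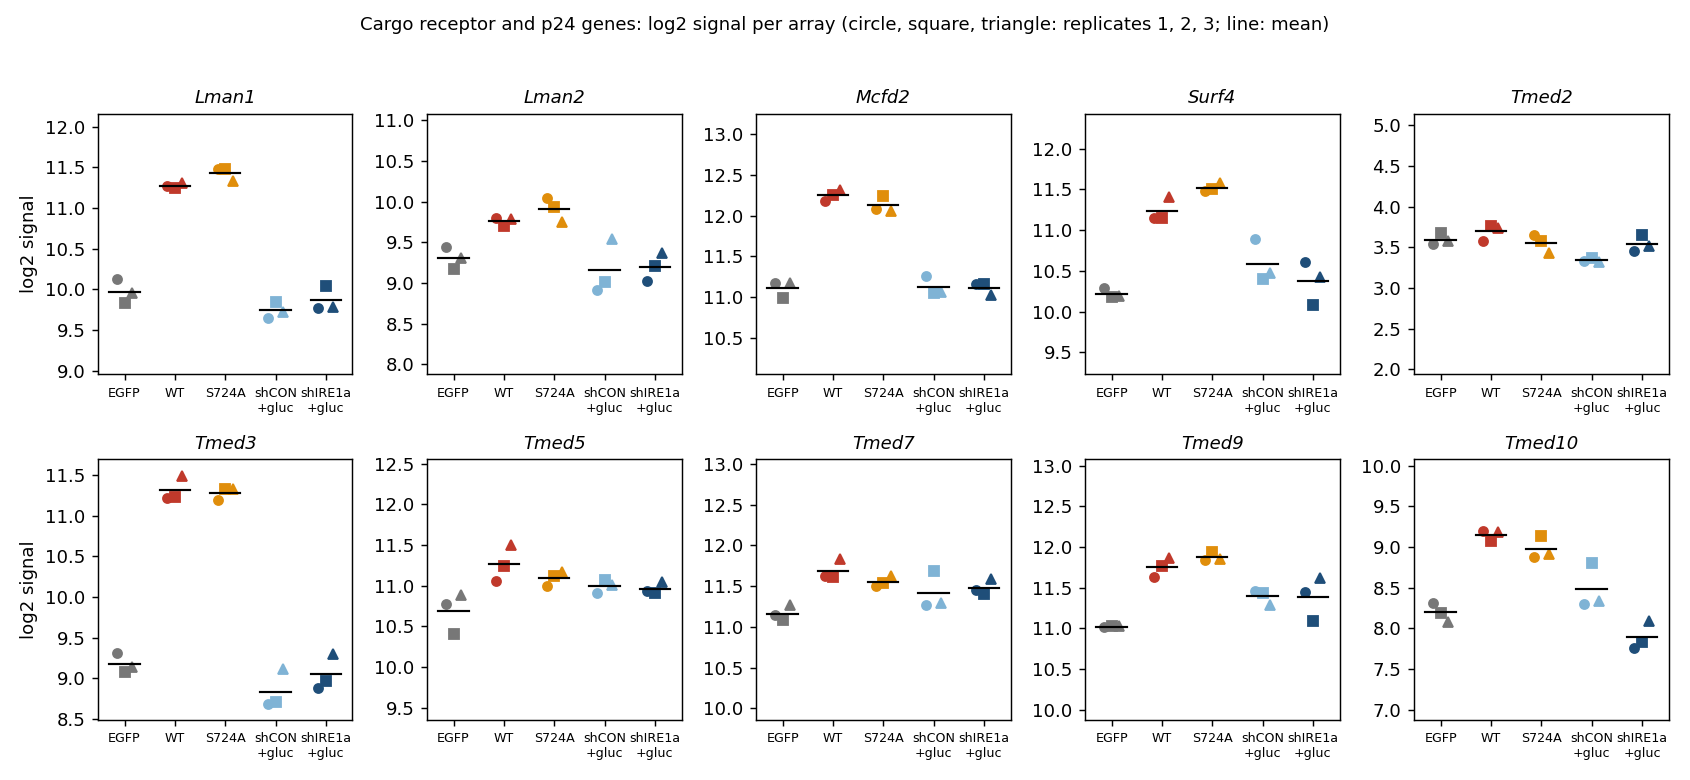
Log2 signal (vertical axis, each panel spanning the same range) of the 10 genes on each of the 15 arrays, by group, with the mean as a line. For Tmed3, Mcfd2, Lman1 and Surf4 the wild-type and S724A arrays sit apart above the other groups, while Tmed2 stays between 3.32 and 3.77 on every array.

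Among the cargo receptors, Lman1, the mannose-binding receptor also called ERGIC-53, read 10.13, 9.83 and 9.96 in EGFP, 11.28, 11.24 and 11.31 in wild-type and 11.48, 11.48 and 11.33 in S724A arrays. Every IRE1a array was above every EGFP array. Lman1 rose by 1.30 ± 0.11 (2.46-fold, adjusted p = 3.77e-06) under wild-type IRE1a and by 1.45 ± 0.11 (2.74-fold, adjusted p = 1.06e-06) under S724A. Mcfd2, its calcium-binding partner, read 11.17, 10.99 and 11.17 in EGFP, 12.18, 12.25 and 12.32 in wild-type and 12.08, 12.24 and 12.05 in S724A arrays. The IRE1a groups overlapped each other and stood clear of EGFP. Mcfd2 rose by 1.14 ± 0.10 (2.20-fold, adjusted p = 5.78e-06) and by 1.02 ± 0.10 (2.02-fold, adjusted p = 1.54e-05).

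Surf4, the lipoprotein receptor of ER exit, read 10.29, 10.17 and 10.19 in EGFP, 11.14, 11.15 and 11.41 in wild-type and 11.49, 11.51 and 11.58 in S724A arrays. The S724A arrays were the highest, and each IRE1a array exceeded each EGFP array. Surf4 rose by 1.02 ± 0.15 (2.02-fold, adjusted p = 0.000486) and by 1.31 ± 0.15 (2.47-fold, adjusted p = 5.92e-05). Lman2, also called VIP36, a lectin of the same fold as Lman1, moved less. It read 9.44, 9.17 and 9.30 in EGFP, 9.80, 9.70 and 9.79 in wild-type and 10.05, 9.94 and 9.75 in S724A arrays. The arrays were apart from EGFP in both. The wild-type change of 0.46 ± 0.15 missed the threshold (adjusted p = 0.0816, and 0.0116 with the replicate block), and under S724A Lman2 rose by 0.61 ± 0.15 (1.53-fold, adjusted p = 0.0273). That call was lost under quantile normalisation (adjusted p = 0.0517) and without S724A replicate 1 or 2 or EGFP replicate 2 or 3 (adjusted p up to 0.129).

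Among the p24 genes, Tmed3, of the gamma subfamily, changed most on the probe sets standing for them. It read 9.31, 9.08 and 9.15 in EGFP, 11.22, 11.23 and 11.49 in wild-type and 11.19, 11.32 and 11.33 in S724A arrays. The wild-type and S724A arrays overlapped and lay far above EGFP. Tmed3 rose by 2.14 ± 0.14 (4.40-fold, adjusted p = 4.56e-07) and by 2.10 ± 0.14 (4.29-fold, adjusted p = 4.03e-07). Its 95% interval under wild-type IRE1a, 1.84 to 2.43, lay above those of the other 8 genes, of which Lman1's reached 1.53. Under S724A it was 1.81 to 2.40, and Lman1's reached 1.68.

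Tmed10, the delta member, read 8.31, 8.20 and 8.08 in EGFP, 9.19, 9.08 and 9.18 in wild-type and 8.87, 9.13 and 8.91 in S724A arrays. The IRE1a groups overlapped. Tmed10 rose by 0.95 ± 0.14 (1.94-fold, adjusted p = 0.000519) and by 0.77 ± 0.14 (1.71-fold, adjusted p = 0.00317). Tmed9, an alpha member, read 11.01, 11.03 and 11.03 in EGFP, 11.64, 11.76 and 11.86 in wild-type and 11.84, 11.94 and 11.86 in S724A arrays. The EGFP arrays were nearly equal and clearly lowest. Tmed9 rose by 0.73 ± 0.12 (1.66-fold, adjusted p = 0.0015) and by 0.86 ± 0.12 (1.81-fold, adjusted p = 0.00047).

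The gamma members Tmed7 and Tmed5 moved less than Tmed3. Tmed7 read 11.14, 11.08 and 11.27 in EGFP, 11.62, 11.62 and 11.83 in wild-type and 11.51, 11.54 and 11.62 in S724A arrays. Tmed5 read 10.77, 10.41 and 10.89 in EGFP, 11.06, 11.25 and 11.50 in wild-type and 11.00, 11.12 and 11.17 in S724A arrays. For both genes the IRE1a arrays were all above EGFP, by a small margin for Tmed5. Under wild-type IRE1a, Tmed7 rose by 0.53 ± 0.12 (1.44-fold, adjusted p = 0.0129) and Tmed5 by 0.58 ± 0.13 (1.49-fold, adjusted p = 0.0144). These calls rested on single arrays: without wild-type replicate 3 the adjusted p was 0.0617 for Tmed7 and 0.0710 for Tmed5, and 6 of 9 genes passed, and both calls were also lost without EGFP replicate 2. The mean of the 5 Tmed5 probe sets changed by 0.28 (adjusted p = 0.107). Under S724A the changes were 0.39 ± 0.12 for Tmed7 (adjusted p = 0.0655) and 0.41 ± 0.13 for Tmed5 (adjusted p = 0.0844), and both passed with the replicate block (0.0373 and 0.0382).

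**Figure D2:**
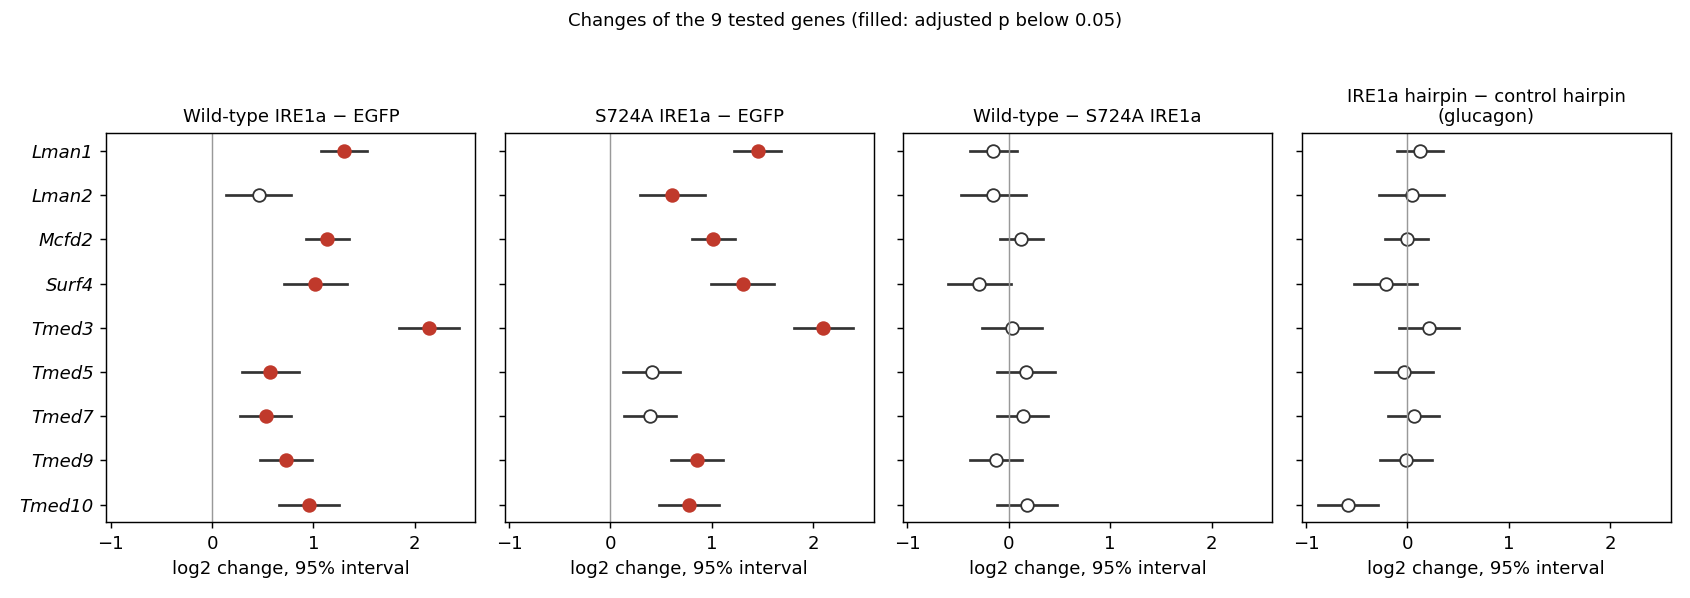
Log2 change (horizontal axis, with 95% interval) of the 9 tested genes in the 4 comparisons, filled where the adjusted p was below 0.05. On the probe set standing for each gene, Tmed3 has the largest change under both forms of IRE1a, 2.14 and 2.10, all intervals for wild-type against S724A include 0, and Tmed10 at -0.58 is the one gene whose interval leaves 0 under the hairpin.

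Tmed2, the beta member, could not be judged from probe sets of its own. Its single such probe set stayed between 3.32 and 3.77 on all 15 arrays, below the level of 4. A further 6 probe sets are annotated to Tmed2 together with Gm10698, and 4 to Tmed10 together with Tmed10-ps, and they are given apart since their annotation does not separate the named genes.

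The different probe sets of a gene mostly moved the same way. Of the 29, 26 were tested, and over 30046 probe sets 18 rose under wild-type IRE1a (3.77% of all were called higher) and 19 under S724A (3.13%), with 0 falling. The arrays were apart upward for 22 (13.9% of all) and 23 (16.4%). For Surf4, 5 of 5 probe sets rose in each comparison, by 0.95 to 1.02 and by 0.89 to 1.31. Tmed9 rose on 2 of 2 in each, and Tmed7 on 3 of 4 in each. Tmed5 was split, with 2 of 5 risen under wild-type IRE1a and 1 of 5 under S724A, and its dim probe set 1458962_at changed by -0.03 ± 0.22 and 0.30 ± 0.22. The second Tmed3 probe set was too dim to test, and averaging it in brought Tmed3 down to 1.24 and 1.23, still past the threshold. Averaging all 5 Lman1 probe sets gave 0.81 under wild-type IRE1a and 1.36 under S724A, also past it, so under S724A the average of Lman1 lay above that of Tmed3. Probe sets ending in x_at or s_at hold probes that can match other transcripts too, among them those standing for Surf4, Tmed9, Tmed7 and Lman1.

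**Figure D3:**
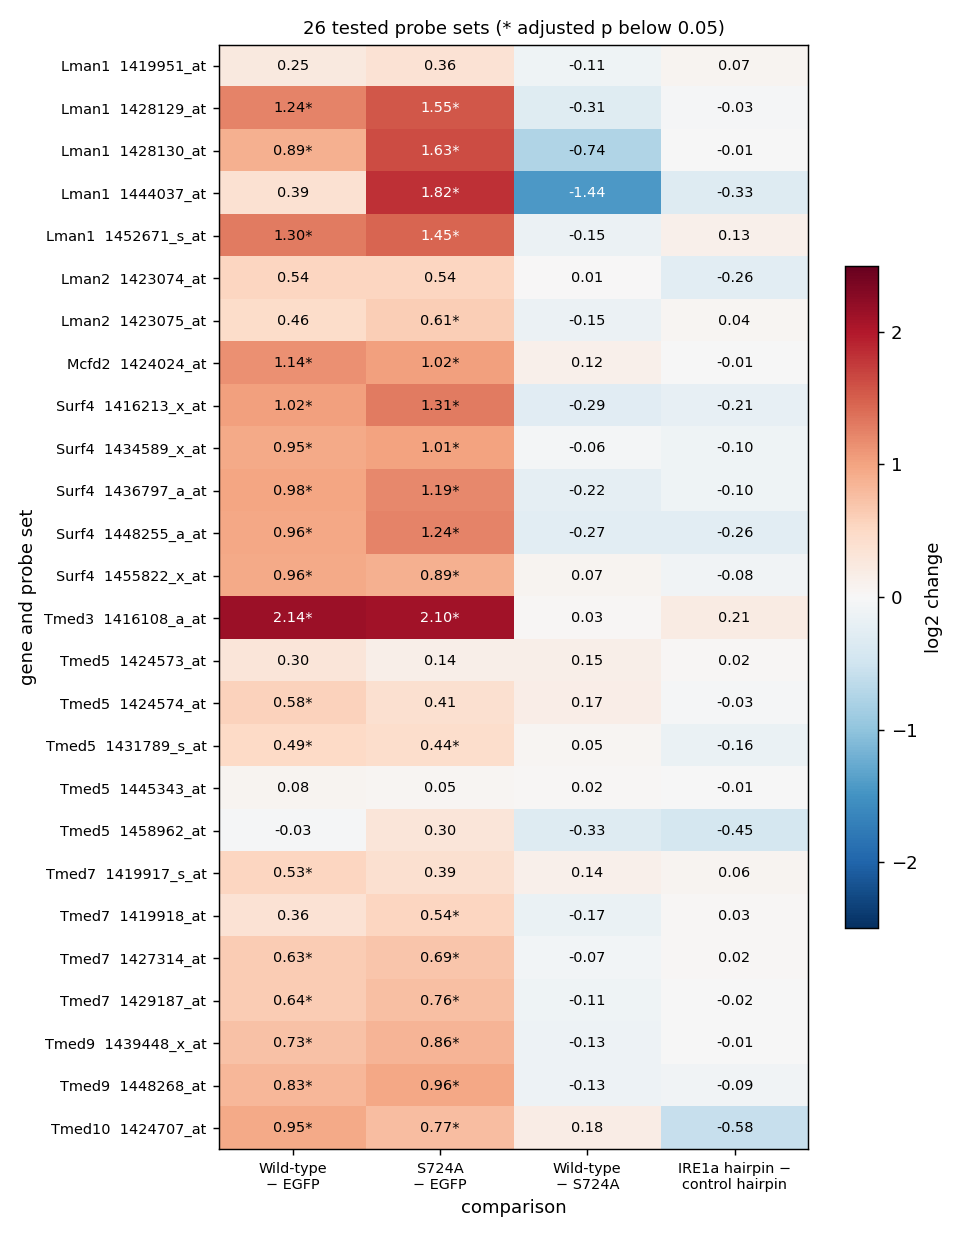
Log2 change of each of the 26 tested probe sets (rows, by gene) in the 4 comparisons (columns), with a star where the adjusted p over all probe sets was below 0.05. The first 2 columns are red for nearly every row, with 18 and 19 stars, and the last 2 columns hold 0.

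Lman1 was read by 5 probe sets that differed on the array with the high beta-actin ratio. On 1428130_at the wild-type arrays read 10.56, 10.49 and 9.47, against 9.48, 9.04 and 9.34 in EGFP and 10.96, 11.06 and 10.73 in S724A. On 1444037_at they read 6.14, 6.69 and 4.36, against 5.43, 5.22 and 5.39 in EGFP and 6.80, 7.47 and 7.24 in S724A. Replicate 3 of wild-type IRE1a was the low value in each, and on 1444037_at it lay below every EGFP array. The change under wild-type IRE1a was 0.89 ± 0.24 on 1428130_at (adjusted p = 0.0425) and 0.39 ± 0.42 on 1444037_at (adjusted p = 0.673). Without that array it was 1.24 (adjusted p = 0.000715) and 1.07 (adjusted p = 0.0177). On 1428129_at (9.99, 9.93 and 9.79) and 1419951_at (5.66, 5.68 and 5.57) replicate 3 was also the lowest wild-type array, but above every EGFP array. On 1452671_s_at it was the highest, at 11.31. Whether RNA quality has a part in the low values was not tested.

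**Figure D4:**
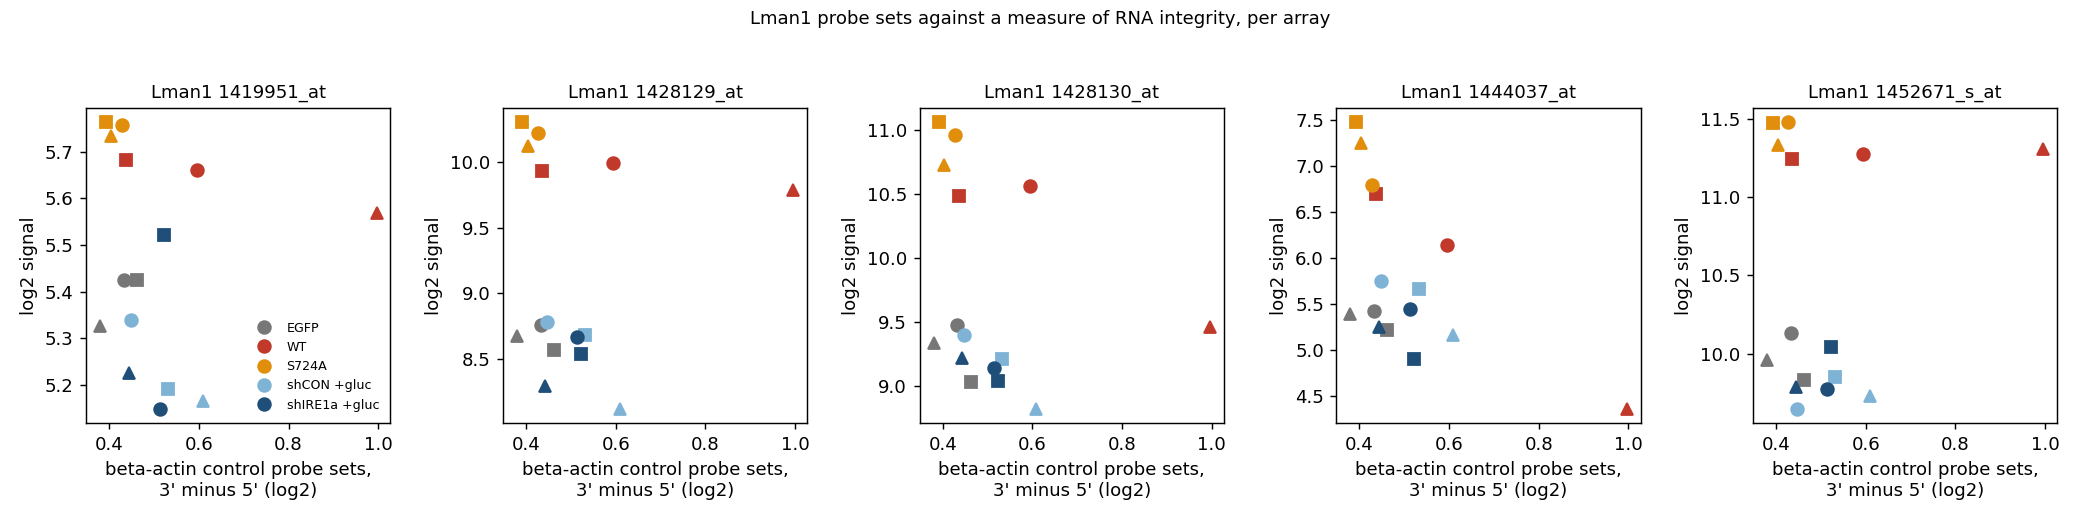
Log2 signal of the 5 Lman1 probe sets (vertical axes, 1 panel each) against the 3′ minus 5′ difference of the beta-actin control probe sets (horizontal axis) on the 15 arrays, coloured by group. Replicate 3 of wild-type IRE1a lies alone at 1.00 on the horizontal axis, level with its group on 1452671_s_at and at 9.47 and 4.36, below its group, on 1428130_at and 1444037_at.

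Wild-type was set against S724A IRE1a to ask whether these genes differ between cultures given the forms. The Ern1 signal does not check the amount of either form, so a difference in amount cannot be told from an effect of the serine. By limma, 0 of 9 genes passed, as did 0% of all 16294 genes, and 0 of the 9 had an unadjusted p under 0.05, against 6.12% of all genes. Changes ran from -0.29 ± 0.15 for Surf4 (95% interval -0.60 to 0.02, adjusted p = 0.837) to 0.18 ± 0.14 for Tmed10 (-0.11 to 0.48). For Tmed3 the interval was -0.26 to 0.33, for Lman1 -0.38 to 0.08 and for Mcfd2 -0.09 to 0.33, which bounds a difference but does not show that the forms act alike. The S724A arrays were all above the wild-type arrays for Lman1 and Surf4, as for 4.69% of all genes. Of the 26 probe sets, 0 passed (0% of all) and 2 had an unadjusted p under 0.05, both of Lman1: 1428130_at at -0.74 ± 0.24 and 1444037_at at -1.44 ± 0.42, the pair with the low array. Without wild-type replicate 3 they changed by -0.39 and -0.75. The S724A arrays were all above the wild-type arrays on each of the 5 Lman1 probe sets, with changes from -1.44 to -0.11. Arrays were apart in that direction for 7 of the 26 probe sets, and for 0 in the other. The share of all probe sets apart in that direction is not given here. Of all 30046 probe sets, 7.36% had an unadjusted p under 0.05, so the count of 2 is close to that share. Of the probe sets naming Tmed2 or Tmed10 with a second gene, 0 passed. Those naming Tmed2 changed by -0.31 ± 0.09 (1420867_at) to -0.06 ± 0.07, and those naming Tmed10 by -0.14 to 0.18. On 1420867_at, 1420868_s_at and 1436451_a_at, all naming Tmed2, the S724A arrays were all higher. Their unadjusted p by limma was 0.00531, 0.0345 and 0.0497. The S724A arrays were also all higher on 1424708_at, which names Tmed10, at -0.14 ± 0.09 (unadjusted p by limma 0.143). On the others naming Tmed2 or Tmed10 with a second gene, the arrays overlapped. How often all probe sets with several symbols were apart in that direction, or had an unadjusted p under 0.05, is not given here.

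The hairpin against IRE1a was compared with the control hairpin, both with glucagon, to ask what lowering IRE1a does. By limma, 0 of 9 genes passed, against 0.233% of all genes, and 1 had an unadjusted p under 0.05, against 7.73% of all genes. That gene was Tmed10. It read 8.30, 8.80 and 8.34 with the control hairpin and 7.76, 7.84 and 8.09 with the IRE1a hairpin. The 3 IRE1a-hairpin arrays were all below the 3 controls, as for 5.49% of all genes. The change was -0.58 ± 0.14 (95% interval -0.88 to -0.29, adjusted p = 0.14), and over 15 alternatives the adjusted p ran from 0.0620 to 0.560. The 4 probe sets annotated to Tmed10 and Tmed10-ps changed by -0.23, -0.02, -0.01 and -0.04 in this comparison, all smaller than the change of Tmed10's own probe set. For the first, 1424708_at, the arrays were apart downward and the 95% interval was -0.42 to -0.03. Its limma p was 0.0251 unadjusted and 0.578 adjusted. The arrays of the others overlapped. The other 8 genes lay between -0.21 ± 0.15 for Surf4 (-0.53 to 0.10) and 0.21 ± 0.14 for Tmed3 (-0.08 to 0.51), with overlapping arrays. Lman1 changed by 0.13 ± 0.11 (-0.10 to 0.36) and Mcfd2 by -0.01 ± 0.10 (-0.22 to 0.21), and the median of the 9 was -0.01 against 0.02 for all genes. Of the 26 probe sets, 0 passed, against 0.17% of all, and 1 had an unadjusted p under 0.05, against 7.94% of all.

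Over all 5 groups the order of the levels fell into a common shape, given as a description since the arms differ in virus, time and glucagon. The wild-type and S724A groups had the highest 2 means for each of the 9 tested genes. Their arrays were apart from the next group for Lman1, Lman2, Mcfd2, Surf4, Tmed3, Tmed9 and Tmed10, and overlapped it for Tmed5 and Tmed7. For Mcfd2 the other 3 groups did not differ beyond their spread, with means of 11.12 ± 0.12 (SD, n = 3) for the control hairpin, 11.11 ± 0.07 for the IRE1a hairpin and 11.11 ± 0.10 for EGFP. For Tmed9, EGFP at 11.02 ± 0.01 lay apart below the IRE1a hairpin at 11.39 ± 0.26 and the control hairpin at 11.40 ± 0.09. Across the 15 arrays each gene correlated with the mean profile of the others at Pearson's r between 0.72 (Tmed7) and 0.95 (Mcfd2), which reflects the shared groups and arrays.

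The 5 other genes whose signal over the 15 arrays was most like the mean profile of the 9 were Sec11c, a signal peptidase subunit (r = 0.988), Hspa13, an ER chaperone of the HSP70 family (0.977), Magt1, a subunit of oligosaccharyltransferase (0.976), Ssr3, a subunit of the TRAP complex at the translocon (0.976), and Fkbp11, an ER prolyl isomerase (0.975). They were picked on these same arrays by likeness to a profile that rises in the IRE1a groups. A rise there is therefore built into the choice, and the values and p-values of these 5 genes are a description only. Under wild-type IRE1a their changes ran from 1.10 ± 0.10 for Ssr3 to 3.26 ± 0.11 for Fkbp11. Under the hairpin, Magt1 changed by -0.58 ± 0.13 (adjusted p = 0.111, and 0.0367 with the replicate block) and Sec11c by 0.09 ± 0.11.

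Other genes of ER exit were taken from a list of 25, of which 24 were on the array with a probe set of their own and 22 were tested. Under wild-type IRE1a 6 rose and 0 fell, against 5.08% of all genes called higher, with a median change of 0.11. With the replicate block 7 passed, where 15.6% of all genes were called in either direction. Among the 7, Lman2l, a lectin related to Lman2, fell by 0.34 (adjusted p = 0.0306). Preb, which activates the COPII GTPase, rose by 1.02 ± 0.20 (adjusted p = 0.00469), and Sar1a, that GTPase, by 0.67 ± 0.11 (adjusted p = 0.00147). Tmed4, an alpha p24 protein, rose by 0.92 ± 0.13 (adjusted p = 0.000468, or by 0.50 when its probe sets were averaged), and Yipf5, a membrane protein of ER-to-Golgi transport, by 0.91 ± 0.13 (adjusted p = 0.000532). Sec16a, the scaffold of ER exit sites, rose by 0.63 ± 0.11 (adjusted p = 0.00214) and its paralogue Sec16b by 1.30 ± 0.31 (adjusted p = 0.0191, lost without any 1 of wild-type replicates 2 and 3 and EGFP replicates 1 and 2, up to 0.0904). Under S724A 6 rose and 0 fell, against 3.87% of all genes called higher, with a median of 0.20. The risen genes were Preb (0.97 ± 0.20), Yipf5 (0.94 ± 0.13), Tmed4 (0.82 ± 0.13), Sar1a (0.76 ± 0.11), Mia3, the collagen export receptor TANGO1 (0.63 ± 0.12), and Sec16a (0.62 ± 0.11). Sec16b changed by 1.07 ± 0.31 (adjusted p = 0.0576, and 0.00362 with the replicate block). With that block 8 passed, where 14.4% of all genes were called in either direction. Among the 8, Ergic3, a membrane protein cycling between ER and Golgi, fell by 0.34 (adjusted p = 0.0330). Under the hairpin 0 of 22 passed, against 0.233% of all genes, and Yipf5 changed by -0.55 ± 0.13 (adjusted p = 0.15, and 0.0296 with the replicate block).

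Proteins reported as cargo of these receptors formed a list of 13 genes, of which 9 were tested. By limma 0 of 9 passed in each of the 4 comparisons, against 7.67%, 6.12%, 0% and 0.233% of all genes, with medians of -0.16, -0.07, -0.16 and 0.01. Under wild-type IRE1a, Ctsz, the lysosomal protease cathepsin Z, read 12.64, 12.52 and 12.51 against 12.90, 12.85 and 12.90 in EGFP. Its arrays were apart, and the change was -0.33 ± 0.10 (adjusted p = 0.0538, between 0.0154 and 0.159 over 15 alternatives, and 0.0313 with the replicate block). F5, coagulation factor V, changed by -0.54 ± 0.27 (adjusted p = 0.274) under wild-type IRE1a and by -0.06 ± 0.27 (adjusted p = 0.909) under S724A, and Apob, the lipoprotein protein, by 0.01 ± 0.25 and -0.35 ± 0.25.

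**Figure D5:**
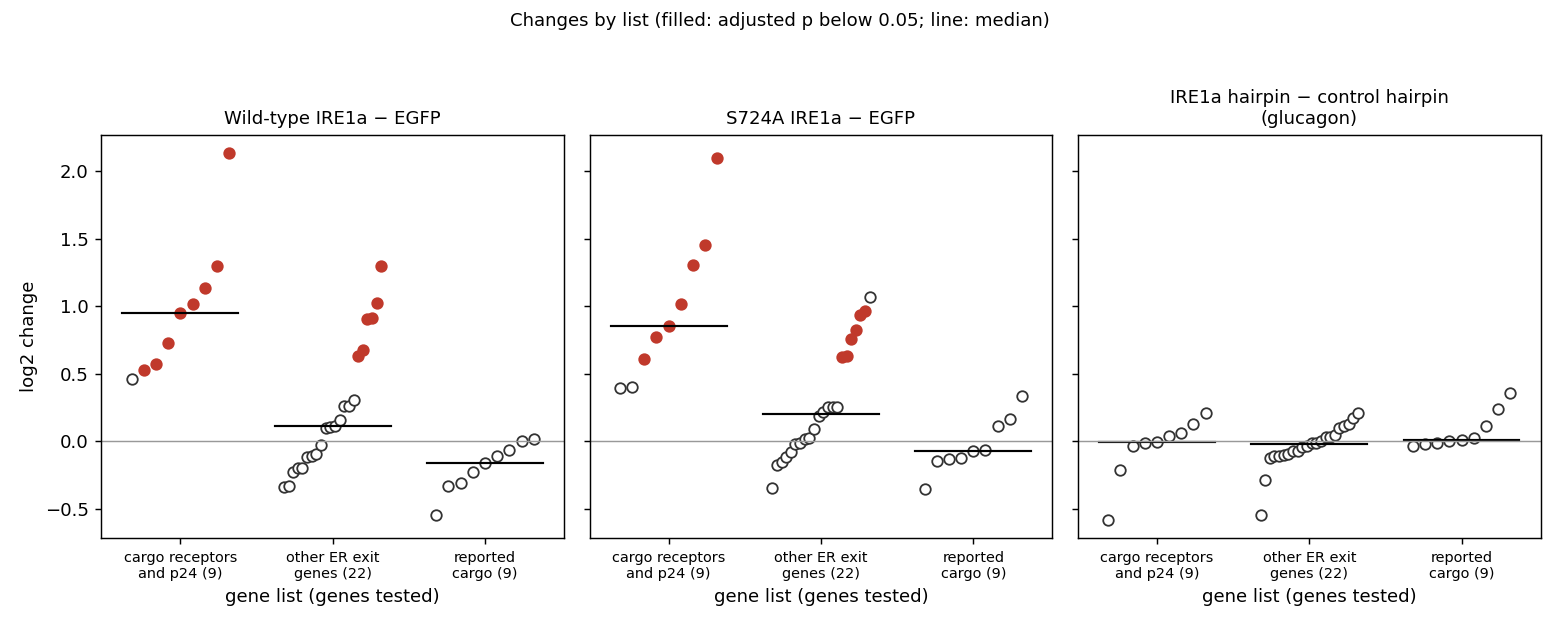
Log2 change (vertical axis) of each tested gene in the 3 lists, sorted within its list, for 3 comparisons, with filled points where the adjusted p was below 0.05 and the list median as a line. Under wild-type IRE1a the medians are 0.95 for the cargo receptors and p24 genes, 0.11 for other ER exit genes and -0.16 for reported cargo, and no point is filled under the hairpin.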

How the data were processed

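Messenger RNA was measured on 15 arrays, 3 in each of 5 groups taken from the labels. Per the submitters' processing notes, the authors used GCRMA, with no version recorded there. The deposited signals are treated as log2, a scale read from their range. Of 45101 probe sets, 64 controls were left out, 34945 had 1 gene symbol in the platform's annotation, 932 had several and 9160 had none; 34741 of the 34945 matched a gene number of assembly GRCm38.p6.

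In R 4.3.3, limma 3.58.1 (lmFit, eBayes) fitted the 5 groups over all 15 arrays with 10 residual degrees of freedom and took 4 comparisons, two-sided, with Benjamini-Hochberg adjustment over all genes (16294) or over all probe sets with 1 symbol (30046) that reached 4 in at least 3 arrays. Probe sets with several symbols (784 tested) were adjusted apart. With 3 arrays a group precision is limited: the median half-width of the 95% intervals was 0.30.

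The labels do not say what a replicate number stands for. Residuals of same-number arrays within an arm correlated in 12 of 12 pairs (r from 0.20 to 0.69) and over 0.1 in 4 of 18 pairs across arms, so the numbers were taken to pair samples within an arm. The main fits and their p-values leave this pairing out, and it enters only where the replicate block is named. The alternatives were quantile normalisation, median centring, no filter, a filter of 6, the 6 arrays of a comparison alone, a trended or robust variance, the replicate block, the mean of a gene's probe sets and leaving out each array.

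The genes, lists and tests were chosen with earlier results of these data known. Named genes are the 10, Ern1 and Xbp1, up to 6 other ER exit genes and 4 cargo genes by smallest p in a comparison, followed across the comparisons, and the 5 most alike genes; hepatocyte and other cell markers are checks. Promoters are RefSeq sequences.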

Additional observations from a re-analysis of the deposited data

Results flagged for a closer look

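The probe sets that name Tmed2 or Tmed10 together with a second gene were outside the main comparisons, and all of them read higher in the IRE1a groups than in the EGFP controls. Adjusted by limma over 784 probe sets with several symbols, the 6 annotated to Gm10698 and Tmed2 had a median change of 0.41 under wild-type IRE1a (0.36 to 0.52, 6 of 6 past the threshold, highest adjusted p = 0.0195) and of 0.56 under S724A (0.45 to 0.78, 6 of 6, highest adjusted p = 0.000916). The 4 annotated to Tmed10-ps and Tmed10 had a median of 0.71 under wild-type IRE1a (0.56 to 0.79, 4 of 4, highest adjusted p = 0.00255) and of 0.64 under S724A (0.59 to 0.70, 4 of 4, highest adjusted p = 0.0138). Of all 784, 48 were called higher under wild-type IRE1a and 38 under S724A. For 1420868_s_at, one of those naming Tmed2, the call under wild-type IRE1a held in 8 of 14 alternatives, with adjusted p up to 0.0727, and for 1439444_x_at, one of those naming Tmed10, the call under S724A held in 11 of 14, with adjusted p up to 0.0603. The other calls held in all 14. Which of the named genes gives the signal cannot be told from these probe sets.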

How the results depend on the processing

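No change of a called gene reversed. Under wild-type IRE1a between 6 and 8 of 9 genes passed when 1 array was left out and between 7 and 9 under the other 9 alternatives; under S724A it was 6 to 7 and 6 to 9. Of the probe sets, 15 to 17 and 14 to 20 passed under wild-type IRE1a, and 15 to 17 and 17 to 20 under S724A. The comparisons of wild-type with S724A and of the hairpins kept 0 throughout. With the replicate block 9 genes and 20 probe sets passed in each comparison with EGFP, and 0 in the other 2; the pairing changed no gene call in the 9 beyond those named in the report. The share of all genes called then rose to 15.6%, 14.4%, 0.0123% and 1.23%. For all probe sets the share called with the block was 11.6%, 10.4%, 0.0133% and 0.812%. Counts over all genes moved most with that block: 1726 rose and 813 fell under wild-type IRE1a (828 and 422 without it), and 1448 and 899 under S724A (631 and 366). Under the hairpin the block gave 87 and 113 (8 and 30 without it), median centring 3 and 20, and the 6 arrays alone 1 and 4; leaving out an array gave from 2 and 11 (IRE1a hairpin replicate 2) to 37 and 38 (control hairpin replicate 3). Without EGFP replicate 2 they were 409 and 306 under wild-type IRE1a and 296 and 189 under S724A, where leaving out S724A replicate 2 (360 and 178) or 3 (407 and 189) or EGFP replicate 3 (398 and 244) also lowered them. Over probe sets, wild-type IRE1a had 1134 and 623, and 678 and 428 in the 6 arrays alone. Between wild-type and S724A, 1 rose and 1 fell with the trended variance and 0 and 2 with the block. Quantile normalisation turned the S724A split to 459 risen and 491 fallen. Over the 9 genes and all alternatives, 523 values kept their side of the threshold, 11 lost it and 6 gained it. Tmed5 under wild-type IRE1a was also lost in the 6 arrays alone (adjusted p = 0.0835) and when its probe sets were averaged (0.107), and Tmed7 under S724A was gained by averaging (0.00116). The cause was not tested. The alternatives for the other lists and the probe sets with several symbols were chosen after seeing the data. Dim signal limits Tmed2, which has no tested value of its own.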

Other observations

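Between wild-type and S724A IRE1a, 3 of the 22 other ER exit genes and 1 of the 9 cargo genes had an unadjusted p under 0.05, against 6.12% of all genes, and 0 passed after adjustment by limma: Ctsc, the lysosomal protease cathepsin C, at -0.65 ± 0.17 (adjusted p = 0.731), Lman2l, a lectin related to Lman2, at -0.33 ± 0.10 (adjusted p = 0.801), Mia3 at -0.32 ± 0.12 (adjusted p = 0.801), and Lman1l, a relative of Lman1, at 0.34 ± 0.15 (adjusted p = 0.803). They are given as values.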
